A study of Mus musculus with 12 samples.

Results

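Mouse samples titled clp, which carry the genes of skin and growing hair, were compared between 90 and 50 days within each genotype. Of the 12 arrays in the series, the 4 with clp in the title were taken: an Eng+/- and a wt array at 90 days (2 arrays) and an Eng+/- and a wt array at 50 days (2 arrays), all on 1 slide. Eng is the gene of endoglin, which helps TGF-beta and BMP ligands to bind their receptors; the titles write the heterozygous genotype as end+/-, and the series title sets it in the hair follicle cycle. The other 8 arrays hold the same 2 genotypes and 2 days with no named treatment (4 arrays) and with tpa (4 arrays), on a slide each. What clp and tpa stand for, what the days count from, how the mice were kept and how many animals gave a sample are not stated in the labels. The titles of both wt arrays with no named treatment hold the word pool, with no word on what was pooled, and the wt pair values with no named treatment rest on them. Each combination of genotype, treatment and day is a single array, so no value below has a replicate. The spread in the fits is how the difference between Eng+/- and wt varies over the 6 conditions of treatment and day, which may be technical in part.

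On every array Cy5 marked the sample and Cy3 marked a pool made from all conditions. The level given here is the log2 ratio of sample over pool, called the log ratio, and it sets samples against each other for 1 gene but not genes against each other. The difference between days is the log ratio at 90 days minus that at 50 days, in the Eng+/- pair, in the wt pair, or as the fitted value over both pairs with its standard error (SE). The array labels call the material E14 embryonic stem cells. Against that, all 50 measured keratin-associated protein genes, which are made in growing hair, were well above background on all 4 clp arrays, and 36 of them reached saturation on at least 1. Of 13 embryonic stem cell genes, 11 were above background on all 4 arrays and 0 were saturated. Of all 25085 features (genes, or accessions with no symbol), 22130 had a probe above background on all 4, and 23905 had a probe saturated on none. The share of stem cell genes above background was thus near that of all features. No label names the tissue.

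Hair follicles pass in cycles through growth (anagen), regression (catagen) and rest (telogen). In growth, matrix cells in the bulb divide around the dermal papilla and differentiate into the inner root sheath and the shaft, which is built of hair keratins cross-linked with keratin-associated proteins, while melanocytes of the bulb pass pigment to it. Sonic hedgehog and Wnt signals favour growth, and BMP signals hold follicle stem cells at rest.

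At 90 days most hair matrix transcription factors, melanocyte genes and cell cycle genes had lower log ratios than at 50 days in both genotypes of the clp samples. Most interferon response, dendritic cell, T cell and sebaceous gland genes had higher log ratios in both. Hair shaft and root sheath lists had low medians in the Eng+/- pair and medians nearer 0 in the wt pair, and macrophage genes were higher mainly in the wt pair. Of 25085 features tested, where a feature is a gene or an accession with no symbol, 0 passed an adjusted p of 0.05 (0%, limma with Benjamini-Hochberg adjustment, smallest adjusted p 0.286). At an unadjusted p under 0.05 there were 3166 (12.6%), of which 1719 were lower at 90 days (6.85%) and 1447 higher (5.77%). Data were simulated for the clp comparison with independent normal noise of each feature's fitted spread, and no genotype or array effects. There the same model recovered 46 of 100 genes with a log2 difference of 1 and 92 of 100 with a difference of 2. It also made 6 false calls. Pairs that disagree were not simulated, so these counts do not say how many real differences were missed here. Leaving out 1 array moved the count of 0: it was 57 without the clp Eng+/- 50-day array, with 86% of them higher, 3 without clp wt at 90 days and 1 without clp Eng+/- at 90 days.

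**Figure D1:**
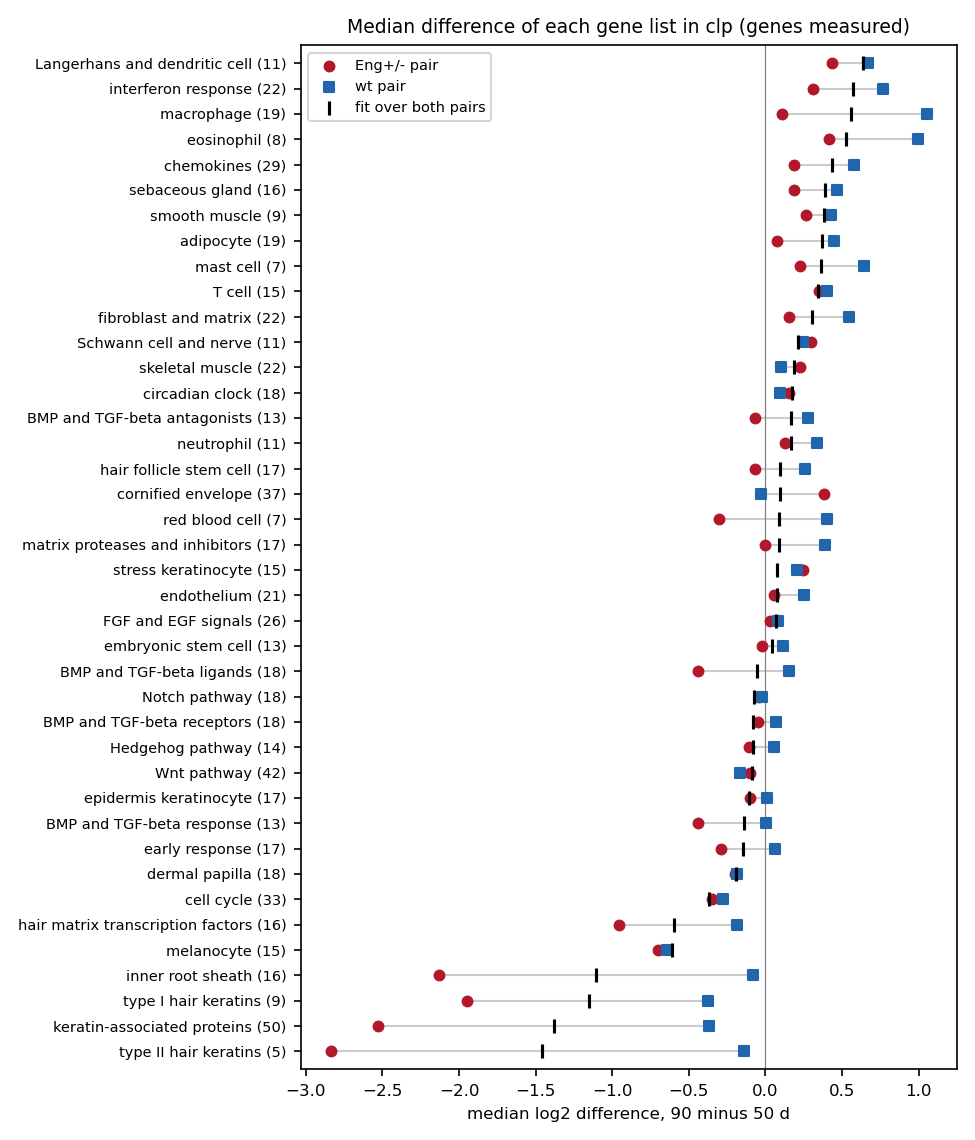
Median log2 difference (90 minus 50 days, horizontal axis) of 40 gene lists in clp, with the number of measured genes after each name. Circles are the Eng+/- pair, squares the wt pair and bars the fitted value over both; by the fitted value the hair shaft lists lie furthest left, with keratin-associated proteins at -2.53 in the Eng+/- pair and -0.37 in the wt pair, and immune lists lie to the right, with macrophage genes at 0.11 and 1.06.

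The 4 arrays differed in brightness. The median Cy5 signal was 205 at 50 days and 263 at 90 days on the Eng+/- arrays, and 540 and 504.5 on the wt arrays, while median Cy3 lay between 123 and 140. Between 72.6 and 76.5% of spots were well above background in Cy5. Over all features the Eng+/- 90-day array stood apart: its log ratios correlated at 0.852 with the Eng+/- 50-day array and at 0.752 and 0.749 with the wt arrays, and at 0.856 to 0.886 with the 4 tpa arrays. Correlations among the other 3 clp arrays were between 0.882 and 0.917. Genes are not independent replicates, so these values describe the arrays only. The part of signal brightness in the differences below was not tested.

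Eng itself was lower at 90 days in both genotypes. Its log ratio was 0.94 at 50 days and -0.78 at 90 days on the Eng+/- arrays, and 1.92 and 0.82 on the wt arrays. At each day the Eng+/- array was below the wt array, and the part of the genotype in this was not tested. Eng is 1 of the 52 features at least 2-fold lower in both pairs. Their medians had the same order, with 1.28 in Eng+/- and 2.17 in wt at 50 days, and -0.03 and 0.77 at 90 days. For Eng both 90-day arrays lay below both 50-day arrays, wt at 90 days only just under Eng+/- at 50 days. The fitted difference was -1.41 ± 0.46 (SE, adjusted p = 0.325, limma), a 2.65-fold lower ratio. In the other treatments the pairs disagreed in size or sign: 0.57 in Eng+/- and -0.35 in wt with no named treatment, and 0.12 and 1.91 with tpa.

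The pairs did not move alike. Over all features the pair differences had the same sign for 63.4% and correlated at 0.296. In both pairs 7333 features were lower (29.2%) and 8568 higher (34.2%), and 9184 (36.6%) had opposite signs, of which 7 were at least 2-fold lower in Eng+/- and higher in wt (0.0279%) and 2 the reverse (0.00797%). At least 2-fold lower in both were 52 (0.207%), and at least 2-fold higher in both 13 (0.0518%). These 65 became 210 on the authors' processed signals, 113 with median centring, 36 with quantile normalization and 42 with Cy5 alone. The Eng+/- pair alone had 717 features at least 2-fold lower (2.86%) and 218 higher (0.869%), whereas the wt pair had 226 lower (0.901%) and 443 higher (1.77%). Both 90-day arrays lay below both 50-day arrays for 4883 features (19.5%) and above them for 5426 (21.6%).

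**Figure D2:**
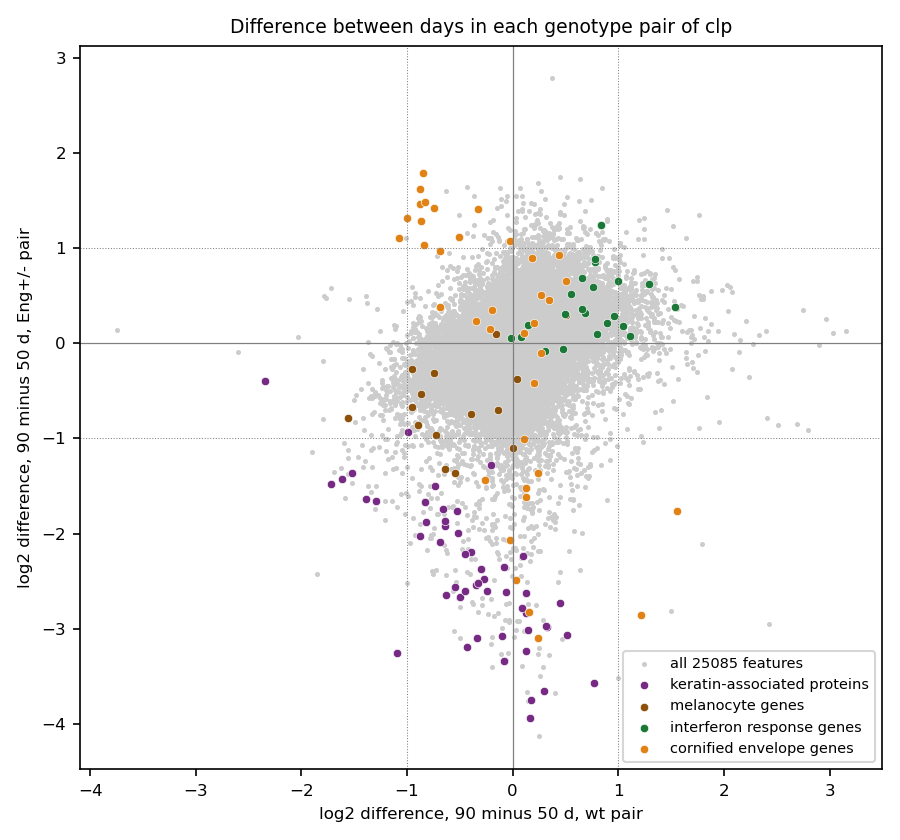
Difference between days of each feature in clp, with the wt pair on the horizontal and the Eng+/- pair on the vertical axis (log2, 90 minus 50 days), dotted lines at 2-fold, and 4 gene lists in colour over 25085 features in grey. Keratin-associated protein genes spread downwards, melanocyte genes sit to the lower left, interferon response genes to the upper right, and cornified envelope genes split between the upper left and the lower part.

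Among the features at least 2-fold lower in both pairs, 38 had a symbol, 6 were keratin-associated proteins and 4 were olfactory receptors. The 12 named by the size of their smaller pair difference were Dnah6, Krtap19-1, Slc7a11, Olfr1132, Gja5, Nms, Krtap31-1, Klre1, Olfr514, Olfr282, Bmp10 and Crisp1. Slc7a11, the cystine transporter that feeds red-yellow pigment and glutathione synthesis, was at 1.64 and 0.13 (50 and 90 days) in Eng+/- and at 1.82 and 0.45 in wt. Both its 50-day arrays stood above both 90-day arrays, by similar amounts in the genotypes, and the fit gave -1.44 ± 0.26 (SE, adjusted p = 0.286, limma).

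Dnah6, an axonemal dynein heavy chain, had the largest fitted difference of the 12, at -2.14 ± 0.60. Its log ratios were 1.52 and -0.90 in Eng+/- and 2.53 and 0.68 in wt, with both 90-day arrays below both 50-day arrays. Bmp10, a BMP family ligand best known from the heart and one that binds endoglin, was at 1.40 and 0.03 in Eng+/- and at 2.70 and 1.49 in wt. Its wt 90-day value exceeded its Eng+/- 50-day value, so that the days overlap, and the fit gave -1.29 ± 0.38. Crisp1, a secreted protein of the epididymis that is also made in skin, was at 1.87 and 0.01 in Eng+/- and at 2.25 and 1.05 in wt (-1.53 ± 0.47).

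A like order of the arrays ran through this group. On all 52 features the wt 50-day array was highest and the Eng+/- 90-day array lowest of the 4. Among all 25085 features the wt 50-day array was highest for 6622 and the Eng+/- 90-day array lowest for 7631. That a 50-day array was highest and a 90-day array lowest on the 52 follows from their choice. The median log ratio of the 52 was 2.17 in wt and 1.28 in Eng+/- at 50 days, and 0.77 and -0.03 at 90 days. With tpa the fitted difference between days had the opposite sign for all 52, beside 15778 of all 25085 features, and with no named treatment for 24 of 52, beside 14485. A probe of its own for Gja5, a gap junction protein, and one for Olfr282, an olfactory receptor, were measured beside those used; they differed by -0.02 and 0.21 (Gja5, Eng+/- and wt pair) and by 0.01 and -0.20 (Olfr282), so the difference rests on 1 of 2 probes for these genes.

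The 12 genes named as higher in both pairs were Dgat2l6, Clec2d, Cidea, H2-Q10, Ear2, Myo1g, Hamp2, Serpinb6e, Cd209e, Mefv, Clstn3 and Gm14548. Dgat2l6, an acyltransferase of the diacylglycerol and wax synthase family, was at -2.44 and -1.04 (50 and 90 days) in Eng+/- and at -3.51 and -2.06 in wt. Cidea, a lipid droplet protein of sebaceous cells and brown fat, was at -1.15 and 0.16 in Eng+/- and at -2.08 and -0.83 in wt. For both genes the wt 50-day array was lowest and the Eng+/- 90-day array highest, and the days did not overlap. The fits gave 1.43 ± 0.46 for Dgat2l6 (adjusted p = 0.325, limma) and 1.28 ± 0.34 for Cidea (adjusted p = 0.303).

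Several of these higher genes mark immune cells, though Klre1, a killer cell lectin-like receptor gene, was among those named as lower (fit -1.39 ± 0.29). Ear2, an eosinophil ribonuclease, was at -2.66 and -1.55 in Eng+/- and at -3.28 and -1.65 in wt, with a fit of 1.37 ± 0.32. Clec2d, a ligand of natural killer cell receptors, had the largest fit of the 12 at 1.55 ± 0.40, and Cd209e, a C-type lectin of myeloid cells, one of 1.02 ± 0.27. Myo1g, a myosin of blood cells, was at -1.64 and -0.54 in Eng+/- and at -2.27 and -1.08 in wt. In all 12 genes both 90-day arrays lay above both 50-day arrays, which the choice of genes largely fixes. For H2-Q10, a class Ib histocompatibility gene, and Mefv, the pyrin gene of myeloid cells, a probe not used differed by at most 0.16 in either pair, where the probe used differed by at least 1.01.

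**Figure D3:**
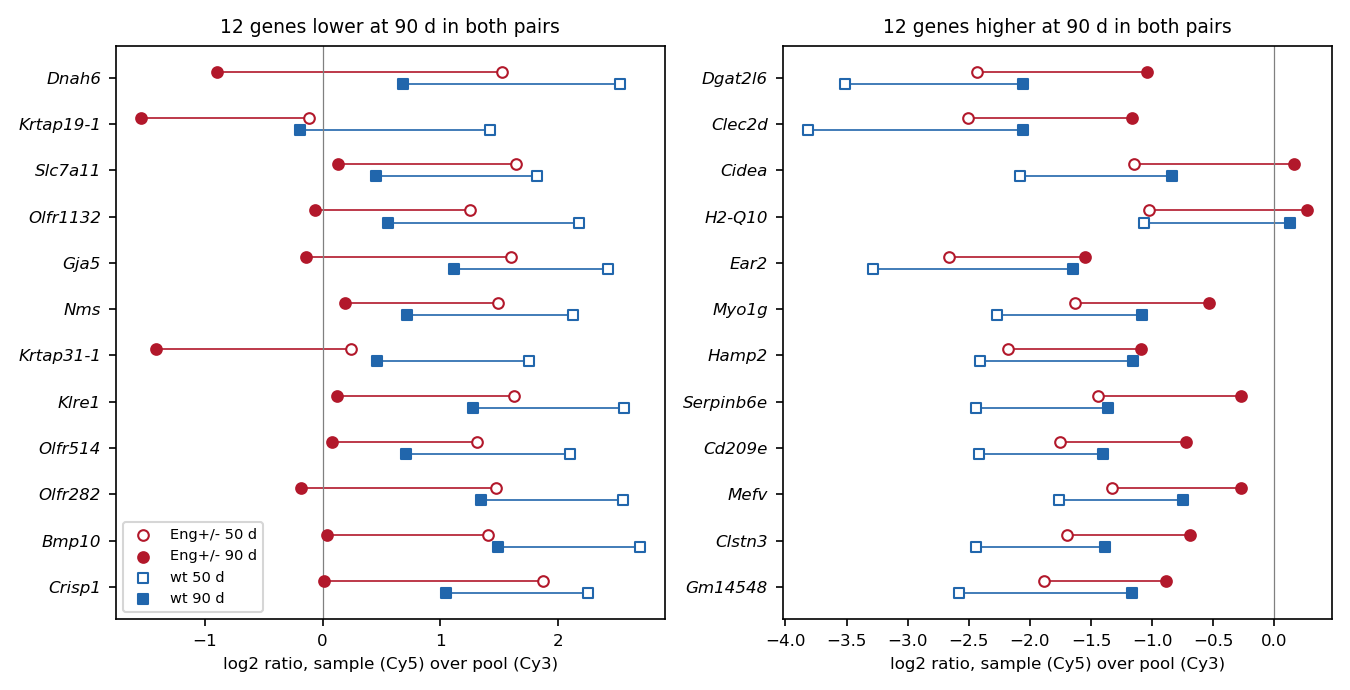
Log2 ratio of sample over pool (horizontal axis) on each clp array for the 12 genes named as lower (left) and the 12 named as higher (right) at 90 days. Open symbols are 50 days and filled symbols 90 days, circles Eng+/- and squares wt, with a line joining the days of a genotype; in Slc7a11 both genotypes run from above 1.6 to below 0.5.

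Hair shaft genes were lower at 90 days, mostly through the Eng+/- pair; in the wt pair the medians of keratin-associated proteins and type II hair keratins reached 0.00 and 0.15 under other scalings. Keratin-associated proteins, which cross-link the keratin filaments of the shaft, had a median log ratio of 0.83 (50 days) and -1.43 (90 days) in Eng+/- and of 1.25 and 0.65 in wt. The Eng+/- 90-day array was thus well under the other 3, while the wt 90-day array lay below Eng+/- at 50 days by a little. Of 50 measured members 36 were lower in both pairs, 0 higher in both and 14 opposite, beside 29.2%, 34.2% and 36.6% of all features. In the Eng+/- pair 48 were at least 2-fold lower and in the wt pair 7, and the median difference was -2.53 and -0.37, beside 0.00 and 0.04 over all features. The fitted median was -1.38, with members between -2.18 and -0.74. Members of this family are close in sequence, and whether each probe tells them apart was not tested. In these bulk samples, fewer cells of a type and less RNA per cell cannot be told apart.

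The members with the smallest p were Krtap24-1, Krtap10-4, Krtap10-10 and Krtap1-4. Krtap24-1 was at 1.71 and 0.04 (50 and 90 days) in Eng+/- and at 1.88 and 1.06 in wt. Krtap10-10, whose probe was saturated on 1 of the 50-day arrays and holds only a bound there, was at -1.16 and -2.09 in Eng+/- and at 0.32 and -0.67 in wt. In both genes each genotype was lower at 90 days. The fits gave -1.25 ± 0.27 for Krtap24-1 (adjusted p = 0.289, limma) and -0.96 ± 0.35 for Krtap10-10 (adjusted p = 0.336). Of the list 4 members had an unadjusted p under 0.05, which is 4 of 50 against 6.85% of all features.

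The promoters of 2 keratin-associated protein genes are shown because members of this family, which lie in clusters, moved in 1 direction in the Eng+/- pair: Krtap31-1, 1 of the 12 genes named as lower, and Krtap4-2, which differed by -3.94 in the Eng+/- pair and by 0.17 in the wt pair with its probe saturated on 1 array of each day. RefSeq promoters (build GRCm38.p6, the 250 bases up to the transcript start) matched 45 of the 50 members, and 36 of these (80%) hold the TATA box letters TATAAA on either strand, against 14.3% of all 27025 genes and 12.4% of all 32851 promoters in the table. The match is marked in capitals, first at position -30 in Krtap31-1 (chr11:99907670-99907919, plus strand) and at -61 in Krtap4-2 (chr11:99635085-99635334, minus strand), both written 5′ to 3′ along the gene.
Krtap31-1: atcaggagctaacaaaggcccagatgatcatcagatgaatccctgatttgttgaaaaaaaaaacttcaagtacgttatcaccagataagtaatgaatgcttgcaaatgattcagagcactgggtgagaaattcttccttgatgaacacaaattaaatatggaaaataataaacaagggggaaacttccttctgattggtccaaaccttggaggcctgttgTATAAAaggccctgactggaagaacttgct
Krtap4-2: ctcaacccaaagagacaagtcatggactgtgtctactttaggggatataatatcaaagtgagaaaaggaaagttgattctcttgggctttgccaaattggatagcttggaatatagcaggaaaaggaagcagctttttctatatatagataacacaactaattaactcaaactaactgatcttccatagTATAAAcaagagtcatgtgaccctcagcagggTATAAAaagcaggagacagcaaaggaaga
Krtap31-1 was at 0.24 and -1.42 in Eng+/- and at 1.75 and 0.46 in wt (fit -1.48 ± 0.81). The median fitted difference was -1.38 over the 36 members with the letters and -1.52 over the 9 without.

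Type I and type II hair keratins, the filament proteins of the shaft, likewise had their lowest median log ratio on the Eng+/- 90-day array. The 9 type I genes were lower in both pairs (9 of 9), with medians of -1.95 in the Eng+/- and -0.38 in the wt pair and fits from -1.80 to -0.46. Krt40 was at 2.09 and 0.04 in Eng+/- and at 2.56 and 1.78 in wt, with a fit of -1.41 ± 0.67 (adjusted p = 0.421, limma), and its other probe was lower in both pairs as well. Krt36 was at 0.92 and -0.88 in Eng+/- and at 1.67 and 0.96 in wt. For Krt40 both 90-day arrays lay below both 50-day arrays, whereas for Krt36 wt at 90 days lay above Eng+/- at 50 days.

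Of 5 type II hair keratins, 3 were lower in both pairs and 2 opposite, with medians of -2.84 in Eng+/- and -0.14 in wt. Krt82, a keratin of the hair cuticle, was at -0.60 and -2.87 in Eng+/- and at 0.04 and -0.32 in wt (fit -1.31 ± 0.58). Krt84, a keratin of hair and tongue, was at 0.53 and -2.49 in Eng+/- and at 0.52 and 0.55 in wt. The Eng+/- 90-day array alone was low among the 4, and the difference between the pairs was not tested. Without the clp Eng+/- 50-day array the fit of Krt87, saturated on 1 array of each day, turned from -1.46 to 0.30, its wt pair being at 0.10.

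Inner root sheath genes, whose products shape and then release the growing shaft, had medians of -2.13 in the Eng+/- pair and -0.08 in the wt pair. Of 16 members 11 were lower in both pairs, 5 opposite and 14 at least 2-fold lower in Eng+/-, against 0 in wt. Dsc2, a desmosomal cadherin, was at 1.27 and -0.97 in Eng+/- and at 1.26 and 1.20 in wt, with a fit of -1.15 ± 0.43 (adjusted p = 0.340, limma). Padi1 and Padi4, which convert arginine of sheath proteins to citrulline, had Eng+/- pair differences of -1.94 and -2.15 and wt pair differences of 0.00 and 0.00. The second probe of Padi4 differed by -1.43 and -0.23. Saturated spots, which hold only a lower bound of the signal, occurred for 10 of the 16 genes on at least 1 clp array.

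Transcription factors of the hair matrix were lower in both pairs for 14 of 16 genes, beside 29.2% of all features, with 0 higher in both. Their medians were -0.96 in Eng+/- and -0.19 in wt. Dlx1, a homeobox factor, was at 1.02 and 0.13 (50 and 90 days) in Eng+/- and at 1.09 and 0.32 in wt, with both 90-day arrays under both 50-day arrays. Lef1, the Wnt effector of the matrix and dermal papilla, was at 0.73 and -0.47 in Eng+/- and at 1.35 and 0.83 in wt. Foxn1, the nude gene that drives shaft keratin expression, was at 0.95 and -0.69 in Eng+/- and at 0.87 and 0.69 in wt. The fits were -0.83 ± 0.24 for Dlx1 (adjusted p = 0.309, limma), -0.86 ± 0.27 for Lef1 and -0.91 ± 0.34 for Foxn1. Hoxc13, another activator of hair keratins, differed by -2.03 in the Eng+/- pair and 0.11 in the wt pair.

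Melanocyte genes were lower at 90 days by similar amounts in both genotypes. The list's median log ratio was 0.45 and -0.21 in Eng+/- and 1.25 and 0.58 in wt, so each genotype was lower at 90 days while wt at 90 days stood above Eng+/- at 50 days. Of 15 members 11 were lower in both pairs (29.2% of all features were), 1 higher and 3 opposite, with medians of -0.70 in Eng+/- and -0.64 in wt. Oca2, a melanosome membrane protein, was at 1.05 and 0.26 in Eng+/- and at 2.56 and 0.99 in wt. Mlana, a membrane protein of melanosomes, was at 0.72 and -0.61 in Eng+/- and at 1.52 and 0.88 in wt. The fits were -1.18 ± 0.51 for Oca2 (adjusted p = 0.390, limma) and -0.98 ± 0.43 for Mlana (adjusted p = 0.390). Kit, the receptor tyrosine kinase that melanocytes depend on, had a fit of -0.57 ± 0.20 with all 90-day values below all 50-day values.

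Enzymes and transporters of pigment synthesis were among these members. Tyr (tyrosinase), which starts the synthesis of melanin, was at -0.13 and -0.80 in Eng+/- and at 1.19 and 0.24 in wt (fit -0.81 ± 0.31). Slc24a5, an ion exchanger of melanosomes, was at 0.97 and 0.01 in Eng+/- and at 1.68 and 0.96 in wt (fit -0.84 ± 0.42). Pmel, which forms the fibrils that hold melanin, and Tyrp1 had fits of -0.96 ± 0.45 and -0.88 ± 0.89, Tyrp1 with a saturated spot on 1 of the 50-day arrays. The cation channel gene Trpm1 was the member higher in both pairs, by 0.30 and 0.50, but the mean over its 3 probes gave a fit of -0.41.

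The promoters of Tyr and Slc24a5 are printed because melanocyte genes differed alike in both pairs and their regulator, MITF, is known to bind the letters TCATGTG. Promoters of 10 of the 15 members were in the RefSeq table, and 6 (60%) hold these letters on either strand, against 3.72% of all genes and 3.25% of all promoters. The match is in capitals, starting at position -22 in Tyr (chr7:87493513-87493762, minus strand) and, on the opposite strand, at -13 in Slc24a5 (chr2:125067877-125068126, plus strand).
Tyr: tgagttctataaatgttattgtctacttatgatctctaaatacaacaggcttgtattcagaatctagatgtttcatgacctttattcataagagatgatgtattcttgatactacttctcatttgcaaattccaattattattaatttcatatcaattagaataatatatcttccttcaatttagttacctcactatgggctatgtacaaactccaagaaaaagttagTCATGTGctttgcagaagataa
Slc24a5: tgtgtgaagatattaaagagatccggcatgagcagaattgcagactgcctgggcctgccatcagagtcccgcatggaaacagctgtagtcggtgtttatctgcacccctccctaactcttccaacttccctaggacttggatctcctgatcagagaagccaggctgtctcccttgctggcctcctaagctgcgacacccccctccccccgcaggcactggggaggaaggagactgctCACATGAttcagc
The median fitted difference was -0.71 over the members with the letters and -0.56 over the 4 without. A match describes the letters in this window and is no evidence of binding in these samples.

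Cell cycle genes were lower in both pairs for 24 of 33 members, higher for 2 and opposite for 7. These shares were 29.2%, 34.2% and 36.6% over all features. Medians of the cell cycle list were -0.35 in Eng+/- and -0.28 in wt, smaller than those of the hair lists in the Eng+/- pair. Bub1b, a spindle checkpoint kinase, was at 1.54 and 0.95 (50 and 90 days) in Eng+/- and at 1.83 and 0.85 in wt. Both of its 90-day arrays were under both 50-day arrays, with a fit of -0.78 ± 0.27 (adjusted p = 0.335, limma). Cdc6, which loads the replicative helicase, had a fit of -0.68 ± 0.21, though its other probe differed by 0.02 in the Eng+/- pair and by -0.59 in the wt pair. Top2a, the topoisomerase of dividing cells, was lower by 0.67 in Eng+/- and 0.72 in wt on the log2 scale. Myc, a growth-promoting transcription factor outside this list, was at 1.74 and 0.80 in Eng+/- and at 1.73 and 1.22 in wt (fit -0.72 ± 0.21). It belongs to a list of early response genes with no common direction. Of 17 members there 6 were lower in both pairs, 4 higher and 7 opposite, with a fitted median of -0.14.

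Signals that drive follicle growth were sought among ligands first. Shh, the hedgehog ligand of the matrix, was at 1.25 and 0.49 in Eng+/- and at 1.71 and 0.46 in wt, with both 90-day arrays well below both 50-day arrays and a fit of -1.01 ± 0.40 (adjusted p = 0.354, limma). Rspo2, an R-spondin that amplifies Wnt signals, was at 0.97 and 0.42 in Eng+/- and at 1.77 and 0.29 in wt (fit -1.02 ± 0.29). Fgf22, a fibroblast growth factor of follicle epithelium, was at 1.20 and 0.08 in Eng+/- and at 0.87 and 0.36 in wt (fit -0.81 ± 0.17, adjusted p = 0.289). The days did not overlap for any of these 3 ligands. The list of FGF and EGF signals, which holds Fgf22, had no common direction. Of its 26 members 6 were lower in both pairs, 13 higher and 7 opposite, with a fitted median of 0.07. Corin, a protease of the dermal papilla, was at 1.32 and 0.20 in Eng+/- and at 1.69 and 0.35 in wt, and its fit of -1.23 ± 0.26 was the largest of the 18 dermal papilla genes.

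As whole lists Wnt and hedgehog genes had fitted medians near the 0.01 of all features, of which 29.2% were lower and 34.2% higher in both pairs. Of 42 Wnt pathway genes 16 were lower in both pairs, 9 higher and 17 opposite, with a fitted median of -0.09. Fzd6, a Frizzled receptor that orients hair follicles, was at 1.78 and 0.50 in Eng+/- and at 1.55 and 1.15 in wt (fit -0.84 ± 0.24). Of 14 hedgehog genes 6 were lower in both pairs and 5 higher, and their fitted median of -0.08 turned to 0.07 when Cy5 and Cy3 had to be above background on all 4 arrays. Cdon, a hedgehog co-receptor, had a fit of 0.81 ± 0.26. The transcription factor Gli2 had a fit of -0.62 ± 0.26, but 0.04 on the authors' processed signals. The dermal papilla list had 10 of 18 members lower in both pairs, 2 higher and 6 opposite. Its medians were -0.20 in Eng+/- and -0.19 in wt, with a fitted median of -0.20.

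The BMP and TGF-beta family, to which endoglin belongs as a co-receptor, showed single members apart and no common direction. Of 18 ligands 5 were lower and 5 higher in both pairs, with medians of -0.44 in Eng+/- and 0.16 in wt. Bmp6, a BMP of skin, was at 1.25 and 0.75 (50 and 90 days) in Eng+/- and at 1.13 and 0.53 in wt, with a fit of -0.55 ± 0.16 (adjusted p = 0.311, limma) and no overlap of the days. Gdf5 had a fit of -1.19 ± 0.36, while its other probe differed the other way, by 0.66 in Eng+/- and 0.19 in wt. Gdf10 had a fit of -0.50 ± 0.16. Tgfb3 was higher by 0.73 and 0.27.

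Of 18 receptors and SMAD transducers, 5 were lower and 5 higher in both pairs, and the fitted median of -0.08 turned to 0.02 with quantile normalization. Smad1, which carries BMP signals to the nucleus, was at 1.28 and 0.47 in Eng+/- and at 1.62 and 0.80 in wt (fit -0.82 ± 0.23), with both 90-day arrays lower. Its other probe differed by -0.01 in Eng+/- and by 0.54 in wt. Acvrl1, the type I receptor that pairs with endoglin in endothelium, was higher by 0.44 and 0.42, against -1.72 and -1.09 for Eng. Of 13 antagonists 6 were higher in both pairs and 2 lower; Fst, which sequesters activins, was higher by 0.67 and 0.68 (fit 0.67 ± 0.35). Of 13 response genes 3 were higher in both pairs and 5 lower, with Smad6, a BMP-induced inhibitor, at -1.20 in Eng+/- and -0.21 in wt.

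Follicle stem cell and endothelial genes gave no common direction. Over all features, 29.2% were lower and 34.2% higher in both pairs. Of 17 stem cell genes 3 were lower and 7 higher in both pairs, and the fitted median was 0.09. Of 21 endothelial genes, a list that does not hold Eng, 10 were higher in both pairs and 2 lower, with a fitted median of 0.08. Flt1, a VEGF receptor, was higher by 0.77 in Eng+/- and by 0.44 in wt.

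Several lists of immune genes were mostly higher at 90 days in both pairs, and others were mixed. Interferon response genes had a median log ratio of -0.92 and -0.30 (50 and 90 days) in Eng+/- and of -1.22 and -0.49 in wt, so that both 90-day arrays stood above both 50-day arrays. Of 22 members 19 were higher in both pairs (34.2% of all features were), 0 lower and 3 opposite, with medians of 0.31 in Eng+/- and 0.77 in wt. The days did not overlap for 16 of 22, against 21.6% of all features, and 8 had an unadjusted p under 0.05, against 5.77%. Igtp, an interferon-induced GTPase, was at -1.09 and -0.20 in Eng+/- and at -1.38 and -0.60 in wt, with a fit of 0.83 ± 0.20 (adjusted p = 0.289, limma). Gbp3, a guanylate-binding protein, was at -1.13 and -0.28 in Eng+/- and at -1.49 and -0.71 in wt, with a fit of 0.82 ± 0.22.

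The promoters of Igtp and Gbp3 are shown because these 2 members had the smallest p of the list and nearly the same difference in both genotypes. The motif searched on both strands, any overlap allowed, was the core of the interferon-stimulated response element. It lies in 11 of 16 members with a RefSeq promoter (68.8%), against 3.46% of all genes and 2.98% of all promoters. Capitals mark the match, starting at position -34 in Igtp (chr11:58199306-58199555, plus strand) and, as 2 overlapping matches on the opposite strand, at -45 in Gbp3 (chr3:142559794-142560043, plus strand).
Igtp: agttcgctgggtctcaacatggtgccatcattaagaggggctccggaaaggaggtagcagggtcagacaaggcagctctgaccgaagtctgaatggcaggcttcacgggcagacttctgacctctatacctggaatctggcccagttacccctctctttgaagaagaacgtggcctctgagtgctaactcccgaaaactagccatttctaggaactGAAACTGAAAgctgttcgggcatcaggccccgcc
Gbp3: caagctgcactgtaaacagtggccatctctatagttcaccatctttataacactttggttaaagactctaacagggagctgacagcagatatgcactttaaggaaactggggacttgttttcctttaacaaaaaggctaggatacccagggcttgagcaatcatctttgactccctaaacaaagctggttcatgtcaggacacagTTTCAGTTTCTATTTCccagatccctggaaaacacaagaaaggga
The median fitted difference was 0.59 with the motif and 0.40 over the 5 members without. Rtp4 and Zbp1, further interferon-induced genes, had fits of 0.95 ± 0.27 and 0.82 ± 0.24.

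Macrophage genes were higher mainly in the wt pair. Their median log ratio was -1.02 and -0.67 in Eng+/- and -1.20 and -0.41 in wt, and 11 of 19 were at least 2-fold higher in the wt pair against 0 in the Eng+/- pair (1.77% and 0.869% of all features). In both pairs 10 were higher, 1 lower and 8 opposite, beside 34.2%, 29.2% and 36.6% of all features. The Eng+/- median of 0.11 reached -0.003 under another scaling. Ctss, a lysosomal protease of antigen-presenting cells, was at -0.99 and -0.50 (50 and 90 days) in Eng+/- and at -2.22 and -0.42 in wt. Ccr2, the receptor that recruits monocytes, was at -1.77 and -1.21 in Eng+/- and at -2.24 and -0.87 in wt. In both genes the wt 50-day array was the lowest and the days did not overlap. The fits were 1.15 ± 0.36 for Ctss (adjusted p = 0.323, limma) and 0.97 ± 0.26 for Ccr2 (adjusted p = 0.306). Whether the pairs differ from each other was not tested.

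Lymphoid and dendritic cell genes were mostly higher in both pairs, and granulocyte lists were mixed. Over all features, 34.2% were higher in both pairs, 29.2% lower and 36.6% opposite. Of 15 T cell genes 12 were higher in both pairs and 2 lower, with medians of 0.35 in Eng+/- and 0.40 in wt; Cd2, a T cell adhesion receptor, was at -1.51 and -0.67 in Eng+/- and at -1.92 and -1.02 in wt, but its other probe differed by only 0.08 and -0.03. Skap1, a T cell adaptor with 1 probe, had a fit of 0.75 ± 0.21. Of 11 Langerhans and dendritic cell genes 8 were higher in both pairs and 0 lower, among them Itgax (CD11c) with a fit of 0.65 ± 0.24. Of 8 eosinophil genes 5 were higher in both pairs, 1 lower and 2 opposite, and of 7 mast cell genes 5, 1 and 1. Of 11 neutrophil genes 5 were higher in both pairs and 6 opposite, and of 29 chemokine genes 18 and 11. Cma1, a mast cell chymase, had a fit of 0.81 ± 0.24, and Cxcl10, an interferon-induced chemokine, was at -0.26 and 0.54 in Eng+/- and at -0.80 and 0.19 in wt.

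Sebaceous gland genes were higher in both pairs for 13 of 16 members and lower for 2, beside 34.2% and 29.2% of all features. Their medians were 0.19 in Eng+/- and 0.47 in wt. Awat1, a wax synthase of sebocytes, was at -0.60 and -0.02 in Eng+/- and at -1.17 and -0.12 in wt (fit 0.82 ± 0.42), and Plin5, a lipid droplet protein, had a fit of 0.62 ± 0.22. Fads2, a fatty acid desaturase, went the other way, at 0.34 and -1.34 in Eng+/- and at 0.89 and 0.41 in wt (fit -1.08 ± 0.46).

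Fat, connective tissue, muscle and blood genes were measured as further cell types of skin. Over all features, 34.2% were higher in both pairs, 29.2% lower and 36.6% opposite. Of 19 adipocyte genes 11 were higher in both pairs and 1 lower, with Plin1, the lipid droplet coat protein of fat cells, higher by 0.50 and 0.49, and Lep, the fat hormone leptin, lower by 0.88 and 0.26 on the log2 scale. Of 22 fibroblast genes 12 were higher in both pairs, 1 lower and 9 opposite, with Lum, a collagen-binding proteoglycan, higher by 0.70 and 0.87. Of 22 skeletal muscle genes 9 were higher in both pairs and 0 lower. The muscle list's median log ratio was 0.27 and 0.74 on the Eng+/- arrays and -0.85 and -0.80 on the wt arrays, so it separated the genotypes more than the days. The 7 red blood cell genes had opposite signs in the pairs in all 7 cases. The part of these cell types in the differences of other lists was not tested.

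Cornified envelope genes, which build the barrier of the outer epidermis, split the genotypes. Of 37 members 28 had opposite signs in the pairs (36.6% of all features did), 7 were higher in both and 2 lower. The fitted median of 0.09 turned negative with quantile normalization and with Cy5 alone. All 13 late cornified envelope genes of the Lce1 family were higher at 90 days in the Eng+/- pair, by 0.15 to 1.79, and lower in the wt pair, by values from -0.998 to -0.192. With median centring 13 and 10 of 13 kept these signs, and with Cy5 alone 12 and 11. Only 8 of the 13 remained when probes saturated on a clp array were left out, and 8 and 8 kept the signs. Whether each probe tells the members of this family apart was not tested.

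Lce1i was at -1.65 and -0.03 (50 and 90 days) in Eng+/- and at -0.47 and -1.34 in wt. Lce1l was at -1.55 and -0.23 in Eng+/- and at -0.95 and -1.95 in wt. For both genes the Eng+/- 50-day and the wt 90-day arrays were the low ones, and the days overlap. Sprr2a2, a small proline-rich cross-bridging protein, and the uncharacterized gene 2310050C09Rik had the same pattern, with 1.10 and 1.11 in Eng+/- and -1.07 and -1.01 in wt. With no named treatment the Eng+/- and wt pairs were at 0.31 and -1.80 for Lce1i and at 0.35 and -1.81 for Lce1l. They were at 1.09 and -1.89 for 2310050C09Rik, so these genes split the genotypes there too. Sprr2a2 was lower in both, at -1.95 and -1.60. With tpa the pairs were at 0.05 and -0.02 for Lce1i and at -0.20 and -0.47 for Lce1l. Whether the pairs differ was not tested, since each rests on 2 arrays.

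**Figure D4:**
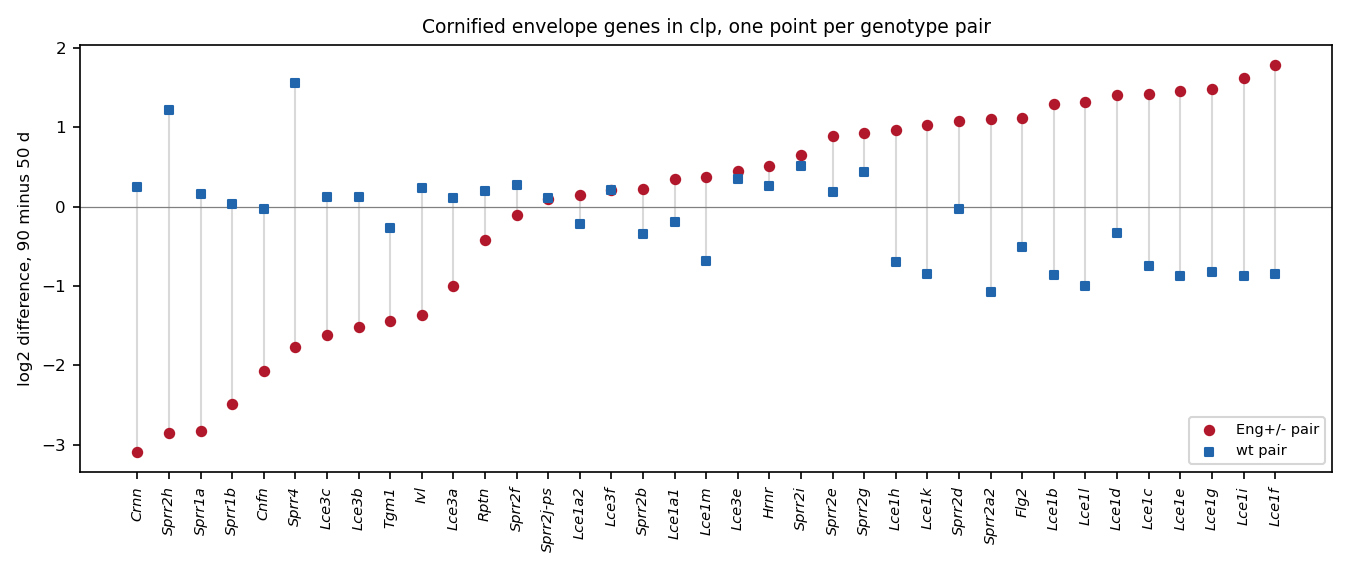
Difference between days (log2, 90 minus 50 days, vertical axis) of the 37 measured cornified envelope genes in clp, ordered by the Eng+/- pair. Circles are the Eng+/- pair and squares the wt pair, joined by a line for each gene; Lce1 genes lie at the right with Eng+/- above 0 and wt below 0, and Crnn at the left with -3.09 in the Eng+/- pair.

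Several genes went the opposite way, among them other members of this list. Sprr4 was at 0.05 and -1.72 in Eng+/- and at -0.44 and 1.11 in wt, and Sprr2h at 0.75 and -2.11 in Eng+/- and at -0.45 and 0.76 in wt. Mmp11, a matrix metalloproteinase of remodelling stroma, was at 0.75 and -1.36 in Eng+/- and at -1.88 and -0.09 in wt. Thbs1, the matrix protein thrombospondin 1, which can release TGF-beta from its latent form, was at 2.18 and -0.64 in Eng+/- and at 0.84 and 2.35 in wt. In these 4 genes the ratio was lower at 90 than at 50 days in Eng+/- and higher in wt, by more than 2-fold each. Tgm1, the transglutaminase that joins envelope proteins, was lower by 1.44 in Eng+/- and 0.27 in wt (fit -0.85 ± 0.29, adjusted p = 0.333, limma).

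Gene lists of basal and suprabasal epidermis gave no stable direction. Of 17 genes 5 were lower and 4 higher in both pairs, and the fitted median of -0.11 turned positive under 4 of the alternatives. Itgb4, an integrin of the basal layer, was higher by 1.01 and 0.29 (fit 0.65 ± 0.22). Of 15 stress keratinocyte genes 4 were higher in both pairs and 11 opposite; Defb14, a beta-defensin, was higher by 1.25 in Eng+/- and 0.21 in wt.

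The difference between days in clp was then set against that in the other treatments, which asks whether the days act alike with each treatment. Each difference between days lies within a slide, but treatment and slide cannot be told apart. For clp minus tpa, 0 of 25085 features passed (0%, smallest adjusted p 0.0897, limma), with 3483 at an unadjusted p under 0.05. Median centring in place of loess gave 328, of which 3.66% were higher. Leaving out an array gave 167 (no named treatment, Eng+/- 90 days), 168 (no named treatment, wt 90 days), 71 (tpa, Eng+/- 50 days), 41 (clp, Eng+/- 50 days), 22 (tpa, wt 90 days), 19 (tpa, Eng+/- 90 days) and 1 (either clp array at 90 days).

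Hair shaft lists had median differences of opposite sign in clp and tpa. In the wt pair with clp, those of type II hair keratins, keratin-associated proteins and inner root sheath genes changed sign under some scalings. Keratin-associated proteins had median pair differences of -2.53 in Eng+/- and -0.37 in wt with clp, and of 2.82 and 5.94 with tpa. Inner root sheath genes were at -2.13 and -0.08 with clp and at 3.06 and 4.80 with tpa, and hair matrix transcription factors at -0.96 and -0.19 and at 0.83 and 1.02. Melanocyte genes were at -0.70 and -0.64 with clp and at 1.35 and 2.23 with tpa, and interferon response genes at 0.31 and 0.77 and at -0.80 and -0.28. For Lef1 the fitted difference was -0.86 with clp and 1.59 with tpa, and for Corin -1.23 and 0.82.

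Against samples with no named treatment, 0 of 25085 features differed in their difference between days (0%, smallest adjusted p 0.273, limma), with 3306 at an unadjusted p under 0.05. This count was 27 without the clp Eng+/- 50-day array, and 8, 4 and 1 without the wt 50-day, wt 90-day and Eng+/- 90-day arrays with no named treatment. Keratin-associated proteins were at -3.02 in the Eng+/- pair and 0.40 in the wt pair with no named treatment, beside -2.53 and -0.37 with clp. Interferon response genes were at 0.20 and 0.82, beside 0.31 and 0.77. Melanocyte genes were at -1.47 and 0.40, beside -0.70 and -0.64, so that with no named treatment the genotypes had opposite signs where with clp they had the same. Sebaceous gland genes were at -0.09 and -0.56, beside 0.19 and 0.47.

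**Figure D5:**
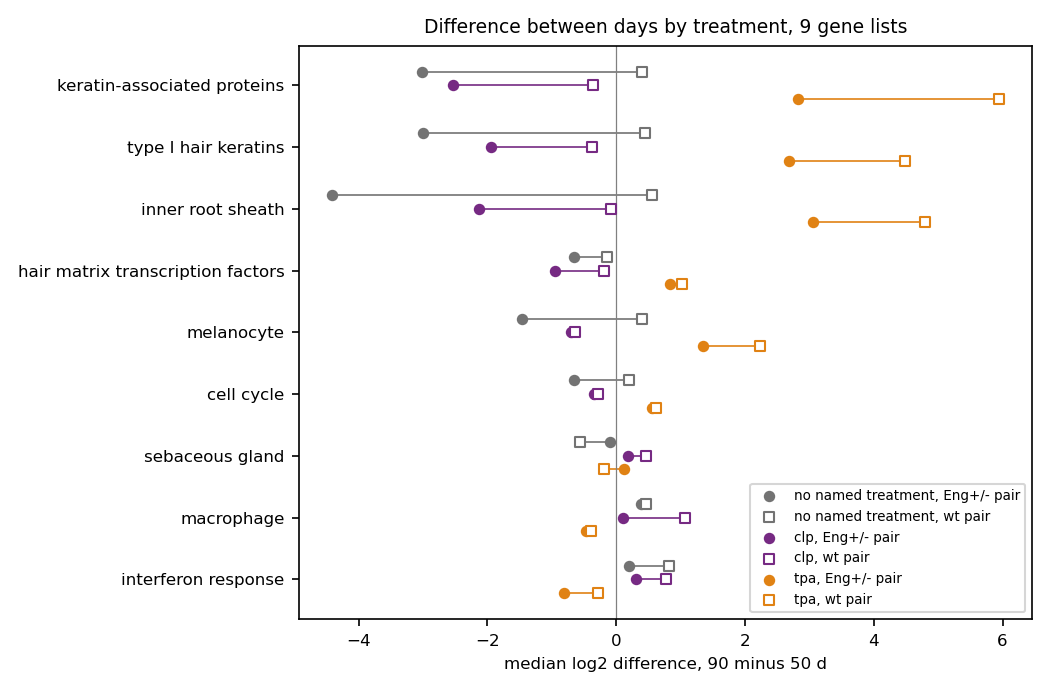
Median log2 difference between days (90 minus 50, horizontal axis) of 9 gene lists with no named treatment (grey), clp (purple) and tpa (orange). Filled circles are the Eng+/- pair and open squares the wt pair, joined by a line; hair lists lie right of 0 with tpa, as keratin-associated proteins at 2.82 and 5.94, and left of 0 with clp.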

How the data were processed

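RNA of 12 mouse samples was hybridised to Agilent 2-colour arrays, with the sample in Cy5 and a pool in Cy3, per the labels. The deposited files hold median spot and background intensity, and processed intensity with its log10 ratio of Cy5 over Cy3, made with Feature Extraction 10.7.3.1 per the file headers (10.0 in the submitters' processing notes, 10.1 in the series text). The series text speaks of wild type in Cy3 with dye swaps; all arrays were taken as Cy5 over Cy3 pool, as labelled. The deposited table of log10 ratios equals those in the array files.

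Median intensities were background-corrected (normexp, offset 50) and normalized within each array by loess (limma 3.58.1, R 4.3.3), with no scaling between arrays; 975 of 39429 probes with an outlier mark were left out. Of the rest 30498 were well above background in Cy5 on at least 2 of 12 arrays and were tested; the brightest probe stands for a gene, giving 25085 features, 17167 with a RefSeq symbol. A linear model with genotype and 6 treatment-by-day conditions over all 12 arrays (5 residual degrees of freedom) gave moderated two-sided p-values, adjusted by Benjamini-Hochberg over all features, with a threshold of 0.05. The genotype term pairs the days, and the spread comes from all 12 arrays, with 1 array per genotype and condition. Arrays have no read depth, and their number limits the precision. The model was checked on simulated data.

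Genes were named by rule: the 12 per direction with the largest smaller pair difference, up to 6 per direction with the largest opposite pair differences, Eng, and up to 4 per list with the smallest p; further list members were chosen after their values were seen. The members, the lists and the rule were chosen with earlier results of these data known. Alternatives were processed signals, median centring, quantile normalization, Cy5 alone, probe filters and averages, other models and each array left out.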

Additional observations from a re-analysis of the deposited data

Results flagged for a closer look

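In 12 genes the Eng+/- pair and the wt pair differed between days in opposite ways; they are the 6 in each direction with the largest smaller difference. With 1 array per genotype and day the difference between the pairs was not tested. It is given as the Eng+/- pair minus the wt pair (log2). Among cornified envelope genes it was 2.32 for Lce1l, 2.34 for Lce1e, 2.49 for Lce1i, 2.15 for Lce1b and 2.18 for Sprr2a2, and 2.11 for the uncharacterized gene 2310050C09Rik. It was -3.32 for Sprr4 and -4.07 for Sprr2h, both small proline-rich proteins. It was -3.90 for Mmp11, -4.32 for Thbs1, -2.27 for the secreted protein gene Wfdc18 and -4.51 for Gm11554. With no named treatment Lce1l, Lce1e, Lce1i, Lce1b, 2310050C09Rik, Sprr2h and Gm11554 had the same pair signs as with clp. The others did not.

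In 15 of 40 gene lists the median difference between days in clp had the opposite sign to that with tpa in both genotype pairs, and in 7 of these the treatments were at least 2-fold apart. Some wt pair medians with clp were near 0. Those of type II hair keratins, keratin-associated proteins and inner root sheath genes changed sign under some scalings, reaching 0.15, 0.00 and 0.03. The median over the list of clp minus tpa was -4.74 for type I hair keratins, -4.88 for type II hair keratins, -5.92 for keratin-associated proteins and -5.15 for inner root sheath genes. It was -1.57 for hair matrix transcription factors, -2.49 for melanocyte genes and 1.28 for interferon response genes. The list medians were not tested; gene by gene, 0 passed in limma (smallest adjusted p 0.0897), with 3483 of 25085 features at an unadjusted p under 0.05. Treatment and slide cannot be told apart.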

How the results depend on the processing

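The count of 0 features past the threshold between 90 and 50 days in clp stayed 0 under processed signals, median centring, quantile normalization, Cy5 alone, the probe filters, other models and the 4 clp arrays alone; leaving out 1 array gave 0 to 57. The genotype term pairs the days, and without it the count was 0 as well; the labels carry no replicate numbers for a further block. For clp minus no named treatment, leaving out 1 array gave 0 to 27, and for clp minus tpa 0 to 168, while median centring gave 328. Without both arrays whose Cy3 pool stood most apart (wt at 50 days with no named treatment and wt at 90 days with clp), the 3 counts were 1, 4 and 1. Features at least 2-fold apart the same way in both pairs numbered 65, but 210 on processed signals, 113 with median centring, 36 with quantile normalization and 42 with Cy5 alone. Those apart in opposite ways numbered 9, but 197, 22 and 29 with processed signals, quantile normalization and Cy5 alone. The cause was not tested. The correlation of the pair differences fell from 0.296 to 0.0447 on processed signals.

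Of 108 genes the text names, 105 kept their sign under every alternative run, and 0 of 1620 values with an adjusted p passed the threshold. Gli2 turned from -0.62 to 0.041 on processed signals, Trpm1 from 0.40 to -0.41 with the mean over probes, and Krt87 from -1.46 to 0.30 without the clp Eng+/- 50-day array, in a range from -3.22 to 0.30 over arrays left out. In the wt pair the medians of type II hair keratins, keratin-associated proteins and inner root sheath genes changed sign under some scalings, reaching 0.15, 0.00 and 0.03. Probes listed as saturated or dim hold only a bound.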

Other observations

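Circadian clock genes had no single direction between 50 and 90 days in clp. Of 18 members 11 were higher in both pairs, 5 lower and 2 opposite, with a fitted median of 0.17. Cry1, a repressor of the clock, was at 1.58 and 1.44 (50 and 90 days) in Eng+/- and at 2.01 and 0.68 in wt, with a fit of -0.74 ± 0.26 (SE). Arntl, the activator BMAL1, was at 1.37 and 0.86 in Eng+/- and at 1.39 and 0.84 in wt, with both 90-day arrays lower. Dbp, an output gene of the clock, was at -0.09 and 0.99 in Eng+/- and at -0.94 and -0.62 in wt (fit 0.70 ± 0.43). The labels name no hour of sampling, and its part was not tested.

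Matrix proteases and their inhibitors also parted by gene. Over all features, 34.2% were higher in both pairs, 29.2% lower and 36.6% opposite. Of 17 protease and inhibitor genes 7 were higher in both pairs, 2 lower and 8 opposite. Timp1, a secreted inhibitor of metalloproteinases, was at -0.83 and -0.17 in Eng+/- and at -1.12 and -0.15 in wt, with both 90-day arrays above both 50-day arrays. Timp4, an inhibitor of the same family, was at 0.81 and -0.01 in Eng+/- and at 1.13 and 0.38 in wt, with both 90-day arrays below. The fits were 0.82 ± 0.21 for Timp1 (adjusted p = 0.301, limma) and -0.78 ± 0.24 for Timp4. Of 11 Schwann cell and nerve genes 6 were higher in both pairs and 0 lower, and of 9 smooth muscle genes 5 were higher and 2 lower.

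Olfactory receptor genes, a list added after 4 of them were seen among the 52 features at least 2-fold lower in both pairs, stood near all features as a whole. Of 299 measured genes 95 were lower in both pairs, 101 higher and 103 opposite, with a fitted median of 0.01.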
